A study of Mus musculus with 32 samples.

Results

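The genes described here encode the respiratory chain and the ATP synthase of mitochondria and are transcribed in the nucleus. They were chosen by name from the protein-coding genes of the RNA-seq files that have a symbol in the authors' comparison tables: symbols that start with Nduf, Uqcr or Atp5, the subunits Cox4 to Cox8 of cytochrome c oxidase, and Sdha to Sdhd. Pseudogene-type symbols were left out. The rule gave 89 genes of 52636 gene entries. Complex I (NADH dehydrogenase) held 45 of them, complex II (succinate dehydrogenase) 4, complex III (the cytochrome bc1 complex) 8, complex IV (cytochrome c oxidase) 16 and complex V (ATP synthase) 16. No level or test result entered the rule beyond that listing. The authors' tables list 15918 of the 52636 entries, so the level of a gene may have entered through them. The rule also takes in genes that are not structural subunits, such as 9 complex I assembly genes and the supercomplex assembly factor Cox7a2l. It misses subunits with other names, such as 2010107E04Rik. Ndufb1-ps, which RefSeq names Ndufb1 and lists as protein-coding, was left out with the pseudogene-type symbols, at up to 769 counts in a library. Ndufb4c, also protein-coding, is not in the authors' tables and was left out, at up to 367 counts. The isoforms Cox4i2, Cox6a2, Cox8b and Cox8c are not listed in those tables and had at most 6 counts in any library.

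RNA was measured by rRNA-depleted RNA-seq in hybrid mouse cells, in 4 groups of 3 libraries. Control embryonic stem cells (ESCs) of genotype Mirg(fl/+) and ESCs of genotype Mirg(Delta/+), in which the maternal copy of the miR-379/410 microRNA cluster was deleted, were grown with serum and LIF and sampled at day 0. Control and deletion induced neurons (iNs) of the same genotypes were sampled at day 10 in neuron differentiation medium after doxycycline switched on a TetO-Ngn2 transgene, which encodes the neuronal transcription factor Neurog2. Ago2 CLIP regions came from Mirg(fl/+) iNs that expressed exogenous Ago2. Libraries are lettered A, B and C. The labels do not say whether the letters are separate clones or cultures, so every p-value rests on the spread among 3 libraries, which may be technical. Every group carries a modified Mirg allele, either floxed or deleted, and unmodified cells were not analysed here. Gene coordinates below come from RefSeq for GRCm38.p6, the assembly of the mm10 build.

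Complexes I and II pass electrons from NADH and succinate to ubiquinone, complex III passes them on to cytochrome c, and complex IV passes them to oxygen. Complexes I, III and IV pump protons across the inner mitochondrial membrane, and complex V uses the return flow to make ATP. Most subunits are encoded in the nucleus and imported, while a small core set is encoded by mitochondrial DNA. Pluripotent stem cells are known to use glycolysis, and neurons to rely on oxidative phosphorylation. How far the ESCs grown here used either was not measured.

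Libraries held 14904735 to 21499106 counts. Mirg, the host transcript of the deleted cluster, had 672 to 932 counts in control ESC libraries and 455 to 685 in control iN libraries. In deletion libraries it had 0 counts in each of the ESCs and 0 to 2 in the iNs. Of the marker lists, 10 of 10 neuron genes were higher and 10 of 10 pluripotency genes lower in control iNs than in control ESCs. Summed levels of neuron genes went from 272 to 277 CPM (counts scaled to library size) up to 9659 to 9919. Those of pluripotency genes went from 2753 to 2839 down to 16.6 to 18.2. Sums over marker lists use library totals, while CPM of single genes uses the scaled library size described below. All 8 genes of dividing cells were lower. Fibroblast markers summed to 58.2 to 65.1 CPM in control ESCs and 71.1 to 82.7 in control iNs, where Lum and Fap were at 0, with 3 of 8 tested genes higher and 5 lower. Glial markers summed to 58.1 to 61.2 CPM in control ESCs and 42.8 to 45.6 in control iNs, with Gfap and Sox10 at 0 and 3 of 5 tested genes higher. The part of other cell types in the results below was not tested. In bulk RNA, fewer cells of a type and less RNA per cell cannot be told apart.

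Together the respiratory chain genes took 0.6585 to 0.703% of all counts in control ESCs, and the deletion ESC libraries gave 0.657 to 0.701%. The share of all counts was higher in iNs, at 0.733 to 0.789% for control and 0.711 to 0.737% for deletion libraries. Mitochondrial, 7S and rRNA-like genes took 15.2 to 15.8% of counts in ESC libraries and 9.82 to 12.05% in iN libraries. Their part in the higher share was not tested. On the scaled library size, structural subunits summed to 6526 to 7042 CPM in control ESCs and 7167 to 7686 in control iNs. In deletion cells these sums overlapped, at 6606 to 7129 CPM in ESCs and 6731 to 7111 in iNs. Levels were compared between genes as TPM, which divides counts by gene length and scales each library to one total. Atp5b, the catalytic beta subunit of ATP synthase, had the highest TPM in all 4 groups: 863 ± 29.7 (SD, n = 3) in control ESCs and 668 ± 75.3 in control iNs. In control ESCs Cox7c (444), Atp5a1 (353), Cox4i1 (326) and Atp5l (313 TPM) followed. Atp5l and the next gene, Cox6c (309 TPM), had overlapping libraries. In control iNs the order behind Atp5b was Cox8a (429), Cox6b1 (410), Cox6a1 (390) and Atp5g3 (344 TPM), and the libraries of Cox8a, Cox6b1 and Cox6a1 overlapped. Atp5a1, the alpha subunit of ATP synthase, went from rank 3 in control ESCs to rank 10 in control iNs, at 297 TPM. Complex I assembly genes were low, with a median of 13.5 TPM in control ESCs against 55.0 for accessory subunits. The lowest genes in control ESCs were Ndufa4l2 and Cox7b2, at 1.85 and 1.92 TPM.

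Control iNs were compared with control ESCs to describe the neuronal state without the deletion. Of the 89 genes, 45 were higher and 20 lower in iNs, and 24 did not pass (edgeR quasi-likelihood test, Benjamini-Hochberg adjusted p under 0.05 over all genes). Over all 17247 genes tested, 43.9% were called higher and 45.1% lower, against 50.6% and 22.5% of the respiratory genes. The median log2 fold change was 0.21, against -0.03 for all genes. Changes were small: 12 of the 89 were called and at least 2-fold, against 64.0% of all genes tested. The plot of changes by complex shows this narrow spread.

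**Figure D1:**
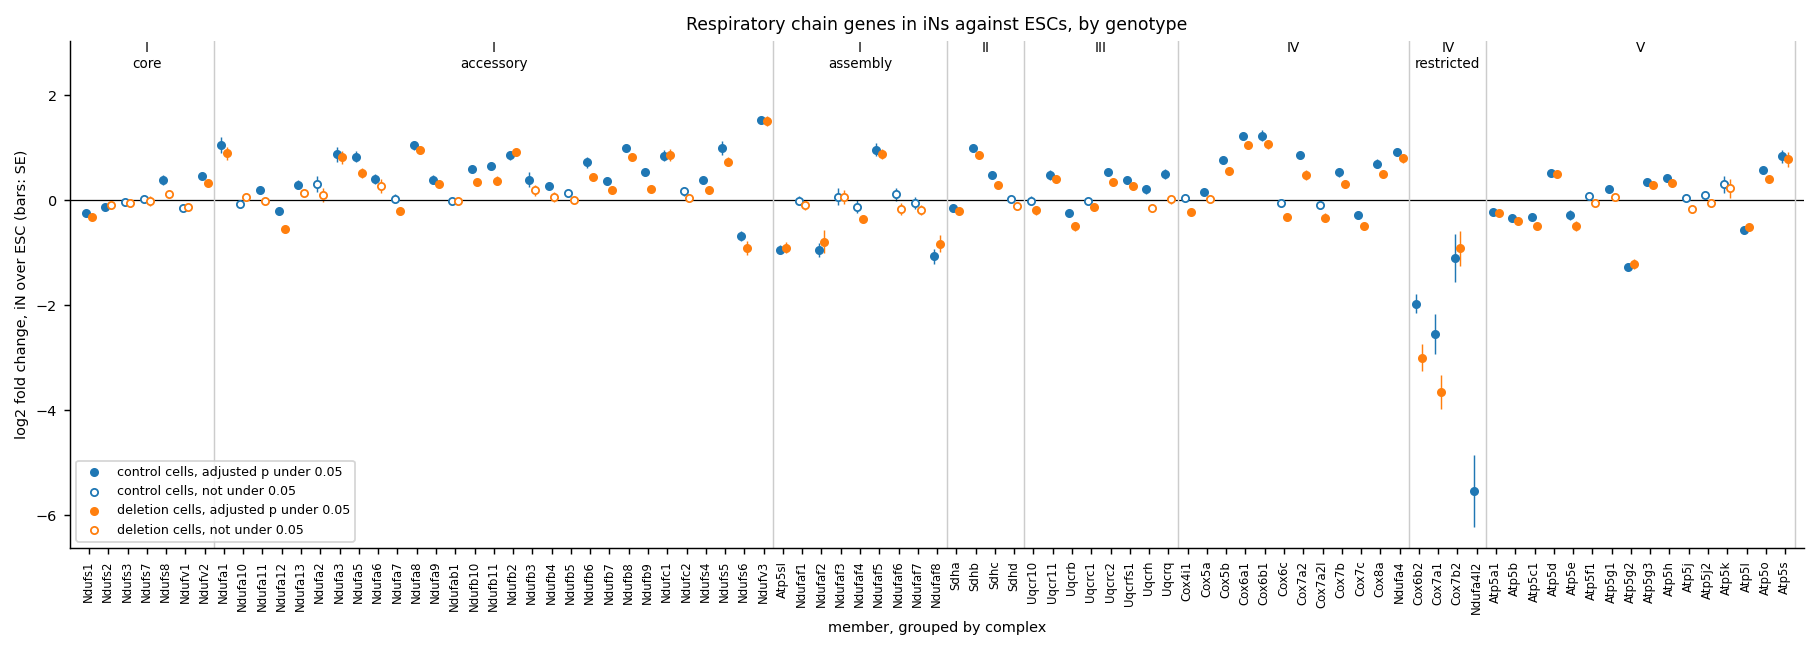
Log2 fold change of each respiratory chain gene, iN minus ESC (y axis), for control cells and for deletion cells, with genes grouped by complex on the x axis; filled points had an adjusted p under 0.05. Most genes of control cells lie between 0 and 1, Ndufv3 is highest there at 1.53, and in controls the restricted isoforms of complex IV, Atp5g2 and 3 assembly factors lie below -0.9.

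Promoters of 76 of the 89 genes were found in RefSeq (GRCm38.p6), with 82 start sites. They were searched on both strands for the letters CGCATGCG, a match to the site of NRF1, a factor known for respiratory chain genes. These letters stood in 11 of 82 promoters (13.4%), against 1.87% of 32851 promoters of the same length. An ETS-type match (CCGGAAG) stood in 22.0% against 8.86%, a YY1-type match (AAGATGG) in 17.1% against 6.34% and an ERR-type match (AAGGTCA) in 9.76% against 4.72%. A match describes the sequence and does not show binding. The background promoters were of the same length but were not matched for base content, whose part in these shares was not tested. The promoters of Atp5g2, which was lower in iNs, and of Cox6a1 and Ndufa8, which were higher, are printed because all 3 hold the NRF1-type letters, shown in capitals, although the genes moved in opposite directions. Each window runs from 250 bases before to 50 bases after the start site, on the minus strand: Atp5g2 at chr15:102670998-102671297, Cox6a1 at chr5:115348909-115349208 and Ndufa8 at chr2:36049289-36049588.
Atp5g2: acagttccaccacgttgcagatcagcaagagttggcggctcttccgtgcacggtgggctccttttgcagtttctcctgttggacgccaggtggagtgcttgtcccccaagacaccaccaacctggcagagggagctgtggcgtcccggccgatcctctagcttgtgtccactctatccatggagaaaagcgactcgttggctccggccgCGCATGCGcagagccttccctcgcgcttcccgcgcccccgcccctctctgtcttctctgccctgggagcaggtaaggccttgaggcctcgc
Cox6a1: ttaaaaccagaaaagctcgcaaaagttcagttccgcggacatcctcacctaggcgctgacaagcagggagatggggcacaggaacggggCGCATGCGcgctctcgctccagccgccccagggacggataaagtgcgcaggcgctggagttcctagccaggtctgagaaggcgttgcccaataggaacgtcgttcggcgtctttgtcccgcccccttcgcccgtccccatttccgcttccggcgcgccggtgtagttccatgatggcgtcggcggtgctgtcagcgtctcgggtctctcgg
Ndufa8: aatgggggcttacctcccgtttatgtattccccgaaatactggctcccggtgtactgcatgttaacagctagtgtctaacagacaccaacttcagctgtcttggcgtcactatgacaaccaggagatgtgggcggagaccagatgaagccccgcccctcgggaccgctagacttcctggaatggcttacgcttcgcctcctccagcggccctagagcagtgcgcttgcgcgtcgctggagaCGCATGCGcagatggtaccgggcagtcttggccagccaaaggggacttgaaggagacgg
The capitals begin at position -41, -161 and -9 from the start site in these 3 windows. The 11 genes with the letters had a median log2 fold change of 0.19 in control iNs and those without had 0.28.

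In complex I, 21 of 29 accessory subunits were higher (72.4%, background 43.9%) and 2 lower (6.90%, background 45.1%), with a median of 0.40. These subunits surround the catalytic core and are needed for assembly and stability. Ndufv3 (ENSMUSG00000024038.16, chr17:31520115-31531326), an accessory subunit of the NADH-binding module, had 36.5, 31.8 and 31.8 CPM in control ESC libraries A, B and C and 88.1, 104 and 98.3 CPM in control iNs. Every iN library was above every ESC library, and the log2 fold change was 1.53 (SE 0.08, adjusted p = 1.3e-09). Ndufa8, a twin-cysteine subunit on the intermembrane space side, had 28.9, 28.01 and 31.0 CPM in control ESCs and 61.9, 65.5 and 54.6 CPM in control iNs. The groups did not overlap (log2 fold change 1.05, SE 0.08). Ndufa1, a small membrane subunit, rose by a similar 1.06 (SE 0.16). Ndufs6, which takes part in the last steps of complex I assembly, went the other way, from 34.8, 30.7 and 30.3 CPM to 18.9, 22.2 and 18.5 CPM (log2 fold change -0.69, SE 0.09). Ndufa12 was also lower, at -0.20 (SE 0.07). No other accessory gene was called lower.

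The catalytic core of complex I had as many genes higher as lower. Of 7 nuclear core subunits, 2 were higher (28.6%, background 43.9%) and 2 lower (28.6%, background 45.1%), with a median of -0.03. With the length trend over genes removed, as described below, 4 were higher and 1 lower, with a median of 0.33. Ndufv2 and Ndufs8, both iron-sulfur subunits, rose by 0.47 (SE 0.06) and 0.40 (SE 0.09). Ndufs1, the largest iron-sulfur subunit, had 138, 141 and 144 CPM in control ESCs and 119, 122 and 119 CPM in control iNs, with no overlap (log2 fold change -0.24, SE 0.05). Of 9 assembly genes, 1 was higher (11.1%, background 43.9%) and 3 lower (33.3%, background 45.1%). Ndufaf5, a hydroxylase that acts on Ndufs7, rose by 0.96 (SE 0.12), while Ndufaf8 (-1.07, SE 0.15), Ndufaf2 (-0.94, SE 0.14) and Atp5sl (-0.94, SE 0.09), all assembly factors, fell. Atp5sl went from 19.7 to 23.0 CPM in control ESCs to 10.6 to 11.98 CPM in control iNs.

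The 4 genes of complex II, which also serves the tricarboxylic acid cycle, moved apart. Sdhb (ENSMUSG00000009863.14, chr4:140961271-140979198), the iron-sulfur subunit, had 43.6, 46.9 and 43.3 CPM in control ESCs and 89.9, 94.0 and 83.1 CPM in control iNs. It about doubled with no overlap between groups (log2 fold change 0.99, SE 0.07, adjusted p = 1.4e-08). Sdhc, a membrane anchor, rose by 0.49 (SE 0.07). Sdhd, the other anchor, had 73.1 to 74.7 CPM in ESCs and 74.1 to 76.6 in iNs and did not pass (log2 fold change 0.02, adjusted p = 0.72). Sdha, the flavoprotein that holds the succinate site, was lower by a small amount, -0.15 (SE 0.06, adjusted p = 0.036), and its libraries overlapped between the groups.

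In complex III, 5 of 8 genes were higher (62.5%, background 43.9%) and 1 lower (12.5%, background 45.1%). Uqcrc2, a core protein, had 87.1 to 90.4 CPM in control ESCs and 121 to 135 CPM in control iNs (log2 fold change 0.54, SE 0.06). Uqcrq, a small subunit beside cytochrome b, had 50.4, 43.5 and 39.6 CPM in control ESCs and 58.9, 67.8 and 62.9 CPM in control iNs, a rise of 0.50 (SE 0.09) with no overlap. Uqcr11 rose by 0.48 (SE 0.09), and Uqcrfs1, the Rieske iron-sulfur protein, by 0.39 (SE 0.05). Uqcrb, which binds near the ubiquinone site, was the 1 lower gene (-0.23, SE 0.07).

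Most common subunits of complex IV rose in iNs, while the restricted isoforms kept by the choice of genes were called lower. Of the 12 common nuclear genes, Cox7a2l counted with them, 8 were higher in iNs and 1 (Cox7c, -0.29, SE 0.07) lower, with a median of 0.62. These were 66.7% higher (background 43.9%) and 8.33% lower (background 45.1%). Cox6a1 (ENSMUSG00000041697.8, chr5:115345652-115348958), a regulatory subunit in most tissues, had 75.2, 65.7 and 62.8 CPM in control ESCs and 148, 166 and 166 CPM in control iNs. Cox6b1 (ENSMUSG00000036751.7, chr7:30616971-30626114), which links the monomers of the dimer, had 72.4, 58.4 and 61.3 CPM in ESCs and 127, 163 and 162 CPM in iNs. Both rose by 1.23 on the log2 scale (SE 0.08 and 0.10, adjusted p = 6.7e-09 and 1.7e-07) without overlap. Ndufa4, once counted with complex I and now known as a complex IV subunit, rose by 0.92 (SE 0.07). Cox7a2 rose by 0.86 (SE 0.06).

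The 4 restricted isoforms of complex IV that the authors' tables list were all called lower. With the length trend removed, as described below, 3 of the 4 were called lower. Restricted isoforms with next to no counts were not listed, and Ndufa4l2 was listed for ESCs only. It entered through its ESC counts, so the shared direction was partly set by the choice of genes. Cox6b2 (ENSMUSG00000051811.14, chr7:4751792-4753094), the testis isoform of subunit 6b, had 7.66, 6.46 and 7.04 CPM in control ESCs and 1.67, 2.27 and 1.39 CPM in control iNs. The groups were apart (log2 fold change -1.97, SE 0.18, adjusted p = 4.4e-07). Of the TPM of the 6b pair, Cox6b2 made up 10.6% ± 0.614 (SD, n = 3) in control ESCs and 1.49% ± 0.435 in control iNs. Cox7a1, the heart and muscle isoform of subunit 7a, fell from 3.33, 1.87 and 2.61 CPM to 0.134, 0.566 and 0.581 CPM (log2 fold change -2.54, SE 0.37), and from 10.7% ± 1.63 to 1.06% ± 0.615 of the TPM of Cox7a1 and Cox7a2. Muscle markers moved with it: they summed to 11.1 to 13.6 CPM in control ESCs and 0.527 to 0.671 CPM in control iNs, all 4 tested genes were lower, and 5 of 10 were at 0 in iNs; their part in the change of Cox7a1 was not tested. Cox7b2, another testis isoform, was under 1 CPM in every library (log2 fold change -1.09, SE 0.46, adjusted p = 0.04). It had 16, 13 and 10 counts in control ESCs and 9, 3 and 5 in control iNs, and its CPM overlapped between the groups. Its call did not hold in every fit without 1 library, nor with the length trend removed. Ndufa4l2, a relative of Ndufa4 known to be induced at low oxygen, had 67 counts over the control ESC libraries and 1 over the control iN libraries, a ratio of 63.5 relative to library size (exact 95% interval 11.01 to 2543, which covers counting error only). In deletion cells it had 24 counts over the ESC and 4 over the iN libraries, a ratio of 5.99 (2.06 to 23.7).

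Complex V had as many higher as lower genes, 6 and 6 of 16 (37.5% each, background 43.9% higher and 45.1% lower). With the length trend over genes removed, as described below, the counts were 12 higher (background 43.3%) and 2 lower (background 45.8%). In the catalytic F1 part 4 of 5 genes were lower (80%, background 45.1%). These were Atp5b (-0.33, SE 0.06), Atp5c1 (-0.32, SE 0.06), Atp5e (-0.28, SE 0.09) and Atp5a1 (-0.21, SE 0.06), while Atp5d rose by 0.53 (SE 0.07). Without the length trend 2 of the 5 were higher and 1 lower, and the median went from -0.28 to -0.02. Atp5b had 1126 to 1190.2 CPM in control ESCs and 883 to 944 CPM in control iNs. In the membrane and stalk part, 4 of 10 were higher (40%, background 43.9%) and 2 lower (20%, background 45.1%). Atp5o, the oligomycin sensitivity protein, rose by 0.57 (SE 0.06) and Atp5l, subunit g, fell by 0.57 (SE 0.06). Atp5s, a coupling factor with a low level, rose by 0.84 (SE 0.12).

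The ring of subunit c is encoded by 3 genes whose mature proteins are known to be identical, and which differ in their import sequences. Atp5g2 (ENSMUSG00000062683.11, chr15:102662868-102671047) had 121, 112 and 106 CPM in control ESCs and 45.4, 50.5 and 45.8 CPM in control iNs, far apart (log2 fold change -1.26, SE 0.07, adjusted p = 1.7e-09). Atp5g3 (chr2:73908447-73912464) had 166, 143 and 156 CPM in ESCs and 199.98, 197 and 199.7 CPM in iNs (0.35, SE 0.06). Atp5g1 (chr11:96072793-96075694) had 84.0, 87.8 and 82.7 CPM in ESCs and 104, 100.4 and 93.7 CPM in iNs (0.22, SE 0.06). Of the TPM of the 3 genes, Atp5g2 went from 30.1% ± 1.07 in control ESCs to 12.8% ± 0.766 in control iNs, and Atp5g3 from 42.0% ± 1.89 to 55.2% ± 1.23. The share of Atp5g1 was 27.8% ± 1.81 and 32.0% ± 1.26. The same exchange was seen in deletion cells, where Atp5g2 went from 30.2% ± 2.80 to 14.1% ± 0.340. The spread of the estimated count that the counting tool gives for reads shared between similar copies was at most 2.93% of the count of Atp5g2, the widest of the 89 genes.

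**Figure D2:**
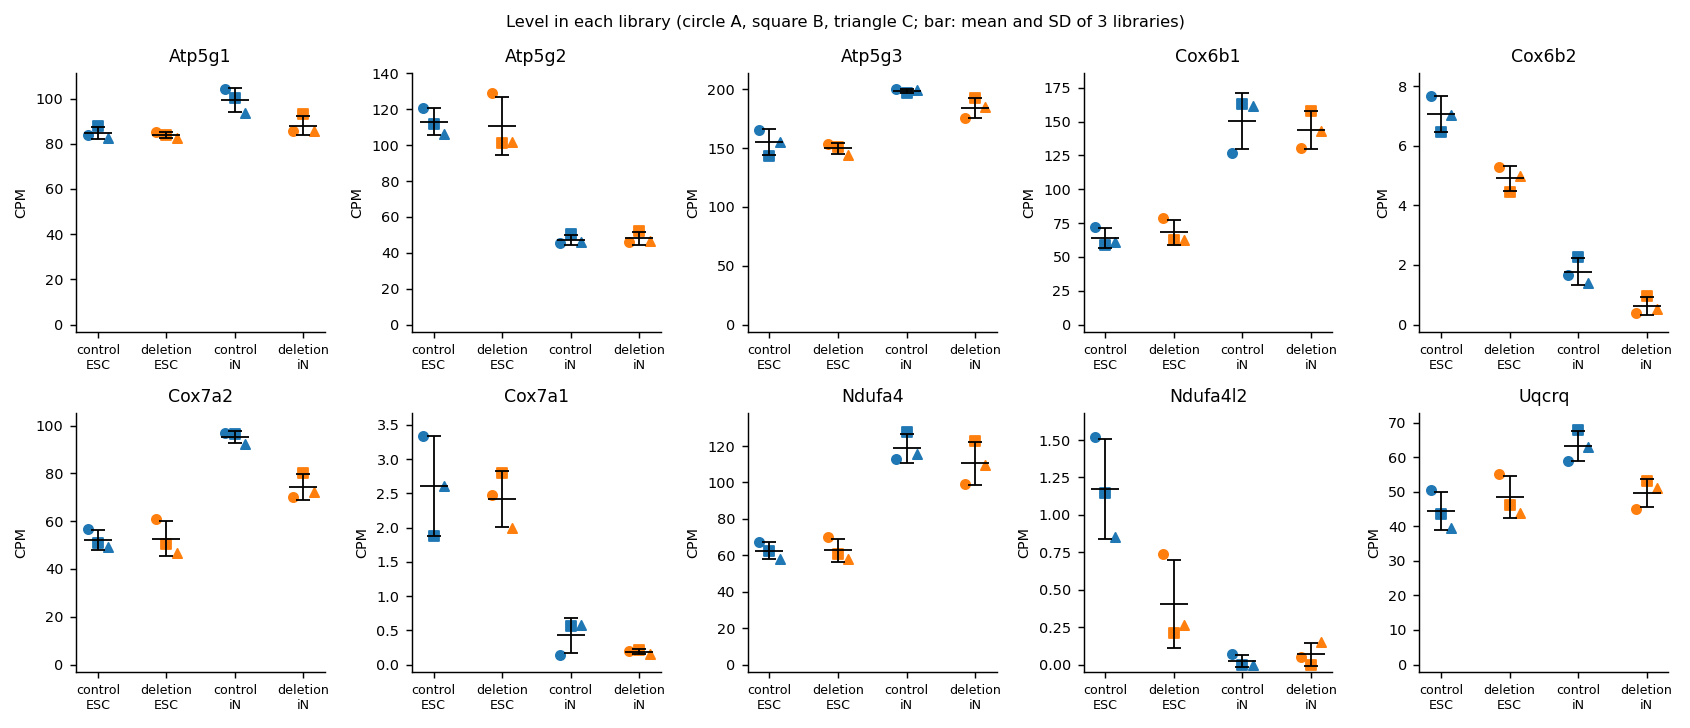
Level in CPM (y axis) of selected genes in each library of the 4 groups (x axis), with circles, squares and triangles for libraries A, B and C and bars for the mean and SD of 3 libraries. Atp5g2 and Cox6b2 are low in all 6 iN libraries, Cox6b2 is lowest in deletion iNs at 0.404 to 0.949 CPM, and Uqcrq and Cox7a2 are lower in deletion than in control iNs.

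Most of these genes are short, and length moved with the comparison. Their median effective length (the bases at which a fragment can start) was 506, against 2202 for all genes tested. Genes shorter than 1000 bases took 13.6 to 14.5% of counts outside mitochondrial, 7S and rRNA-like genes in control ESCs and 8.13 to 8.61% in control iNs. In the shortest of 10 equal length classes (up to 843 bases), the median over all genes was -0.75, while the 60 respiratory genes in it had a median of 0.36. When the trend over length was removed, 69 of the 89 were higher (background 43.3%) and 8 lower (background 45.8%), the median was 0.80, and the share of higher genes among called ones went from 69.2% to 89.6%. Of the 45 and 20 genes called above, 44 and 8 were also called then. Among the genes called lower above, Ndufs6 (0.12), Ndufa12 (0.59), Uqcrb (0.62), Cox7c (0.60), Atp5e (0.68) and Atp5l (0.25) were positive after the removal, and all but Ndufs6 were then called higher. The 7 genes lower under every alternative run were Atp5sl, Ndufs1, Cox6b2, Cox7a1, Ndufa4l2, Atp5a1 and Atp5g2, and 41 genes were higher under every one. Ndufa4l2, also among the 20 called lower, entered the set through its ESC counts, so its direction was partly set by the choice of genes. Whether the length trend is a property of the libraries or of the cells was not tested.

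**Figure D3:**
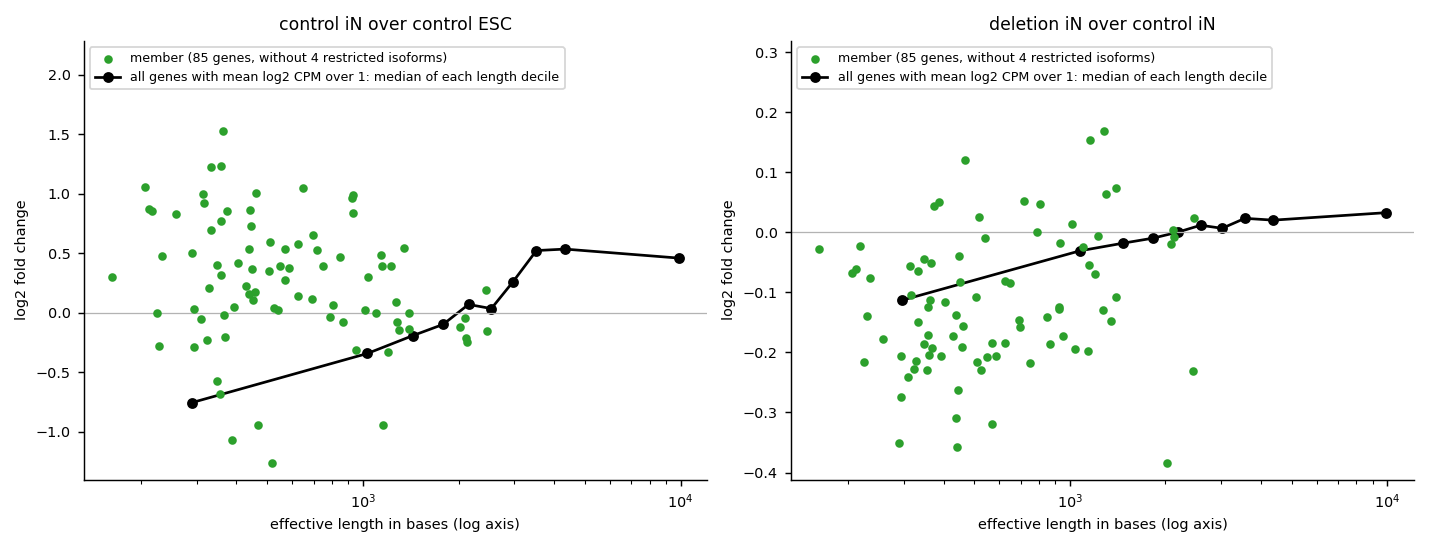
Log2 fold change (y axis) against effective length in bases (log x axis) for respiratory chain genes (green points) and the median of all genes in each of 10 length classes (black line), for the cell types in controls and for the deletion in iNs. In the left comparison most respiratory genes in the shortest class lie above the all-gene median of -0.75, and in the deletion comparison they lie around it (-0.15 against -0.11).

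In deletion cells the same cell types gave 35 higher (39.8%, background 44.6%) and 25 lower genes (28.4%, background 44.9%) of 88 tested, with a median of 0.06. The 2 comparisons share no library. Of the 89 genes, 35 were called higher in both genotypes, 18 lower in both and 0 in opposite directions, and the changes correlated across 88 genes at r = 0.967 (Spearman 0.970), a description over genes that share libraries. The same counts and correlation were not computed over all genes, so they are not shown to be particular to these genes. In controls 43.9% of all genes were called higher and 45.1% lower. Ndufv3 rose by 1.51, Cox6b1 by 1.06, Cox6a1 by 1.05 and Sdhb by 0.87, and Atp5g2 fell by 1.22. A further 10 genes passed as higher in controls but not in deletion cells, and 7 passed as lower in deletion cells but not in controls, among them Cox4i1 (-0.23, SE 0.06), Cox6c (-0.32, SE 0.08) and Ndufaf4 (-0.35, SE 0.07). With the length trend removed Cox4i1 and Cox6c were called higher instead, at 0.53 and 0.83, and Ndufaf4 was still lower (-0.38). Of the genes called in 1 genotype, the difference between genotypes passed its own test for Cox4i1 and Uqcrq, described below. Without the length trend 70 were higher (background 44.7%) and 10 lower (background 44.7%), with a median of 0.83.

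The deletion was compared with control cells to ask what loss of the maternal microRNA cluster does to these transcripts in neurons. In iNs, 20 of 86 tested genes were lower in deletion cells (23.3%, background 13.3%) and 1 was higher (1.16%, background 12.4%). The median log2 fold change was -0.13, against 0.00 for all genes, and 72 of 86 values were negative. Genes called lower lay in every complex: 9 in complex I, 1 in complex II, 3 in complex III, 5 in complex IV and 2 in complex V. Complex II rests on 1 of 4 genes. Complex IV common subunits all had negative values, 4 of 12 passed, and their median was -0.18. In complex V 2 of 16 passed, which is not above the background share, and its median was -0.08. The 1 higher gene, the accessory subunit Ndufa10, had 53.9, 59.3 and 58.4 CPM in control iNs and 63.3, 67.2 and 62.5 CPM in deletion iNs (log2 fold change 0.17, SE 0.06, adjusted p = 0.049), and it lost its call when any single library was left out.

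These small shifts moved with length and scaling. Genes shorter than 1000 bases took 7.11 to 8.05% of counts in deletion iNs, with no overlap with the control iNs, and mitochondrial genes took 2.45 to 3.60% against 3.42 to 4.38%. Markers of other cells also differed: from control to deletion iNs the summed CPM of neuron markers went from 9659 to 9919 up to 9960.1 to 10238 (5 of 10 higher), of glial markers from 42.8 to 45.6 up to 48.5 to 56.1 (2 of 4 tested higher, Gfap and Sox10 at 0) and of fibroblast markers from 71.1 to 82.7 up to 91.9 to 102 (1 of 3 tested higher, and Dcn, Lum and Fap at 0 in deletion iNs). These sums use library totals and not the TMM scaling of the other CPM values. On library totals none of these ranges overlapped, and the separation of the neuron ranges is not shown with TMM scaling. The part of these markers in the result was not tested. Without the length trend, 7 genes were lower (background 13.5%) and 2 higher (background 12.8%), with a median of -0.01. In TPM, 61 of the 89 genes had a higher mean in deletion than in control iNs, while in CPM 16 of 89 did. Scaling by library totals left 9 lower genes. Leaving out deletion iN library A left 5 lower genes, deletion iN C 7 and control iN B 8, and the other libraries left 19 to 21. Lower under every alternative run were Ndufb9, Uqcrq, Cox7a2 and Cox6b2.

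Cox7a2 (ENSMUSG00000032330.7, chr9:79755241-79771422), the common isoform of subunit 7a, had 96.7, 96.3 and 92.3 CPM in control iNs and 70.1, 80.3 and 72.1 CPM in deletion iNs. Every deletion library was below every control library (log2 fold change -0.36, SE 0.06, adjusted p = 0.00057), and the same held in TPM, at 180 to 198 against 166 to 171. Uqcrq (ENSMUSG00000044894.14, chr11:53427922-53430831) had 58.9, 67.8 and 62.9 CPM in control iNs and 45.0, 53.0 and 50.9 CPM in deletion iNs, without overlap (-0.35, SE 0.07, adjusted p = 0.0021). Ndufb9 (ENSMUSG00000022354.3, chr15:58933801-58939516), an accessory subunit of the complex I membrane arm, had 62.4, 65.7 and 60.6 CPM in control iNs and 48.4, 52.8 and 51.1 CPM in deletion iNs, also without overlap (-0.31, SE 0.06, adjusted p = 0.0013). With the length trend removed these 3 differences were smaller, at -0.22, -0.16 and -0.17, and still passed. Cox4i1 (chr8:120668225-120674209), the common form of the largest nuclear subunit of complex IV, had 187, 201 and 196 CPM in control iNs and 164, 173 and 162 CPM in deletion iNs (-0.23, SE 0.05, adjusted p = 0.0054). Its adjusted p was 0.10 without the length trend, and in TPM its groups overlapped, at 295.5 to 352.5 in control and 303 to 333 in deletion iNs.

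Other lower genes in complex I were Ndufb4 (-0.32, SE 0.08) and Ndufa7 (-0.27, SE 0.08), both accessory, and the assembly factor Ndufaf4 (-0.38, SE 0.12). Ndufaf4 rested on control iN library A, with 50.2, 32.0 and 37.2 CPM in control iNs and 29.5, 30.9 and 30.3 in deletion iNs. Sdhc was the 1 lower gene of complex II (-0.20, SE 0.06), while Sdha, Sdhb and Sdhd did not pass. In complex III Uqcr10 (-0.22, SE 0.07) and Uqcrh (-0.21, SE 0.07) were lower beside Uqcrq, and the value of Uqcr10 was 0.0074 without the length trend. Cox6c (-0.24, SE 0.07) and Cox7c (-0.21, SE 0.07) were the other common subunits of complex IV. In complex V the lower genes were Atp5c1 (-0.17, SE 0.06) and Atp5g1 (-0.17, SE 0.06), and Atp5g2 and Atp5g3 did not pass. The authors' deposited table for iNs listed 22 of 88 of these genes lower (background 14.8%) and 1 higher (background 11.1%), with a median of -0.14.

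**Figure D4:**
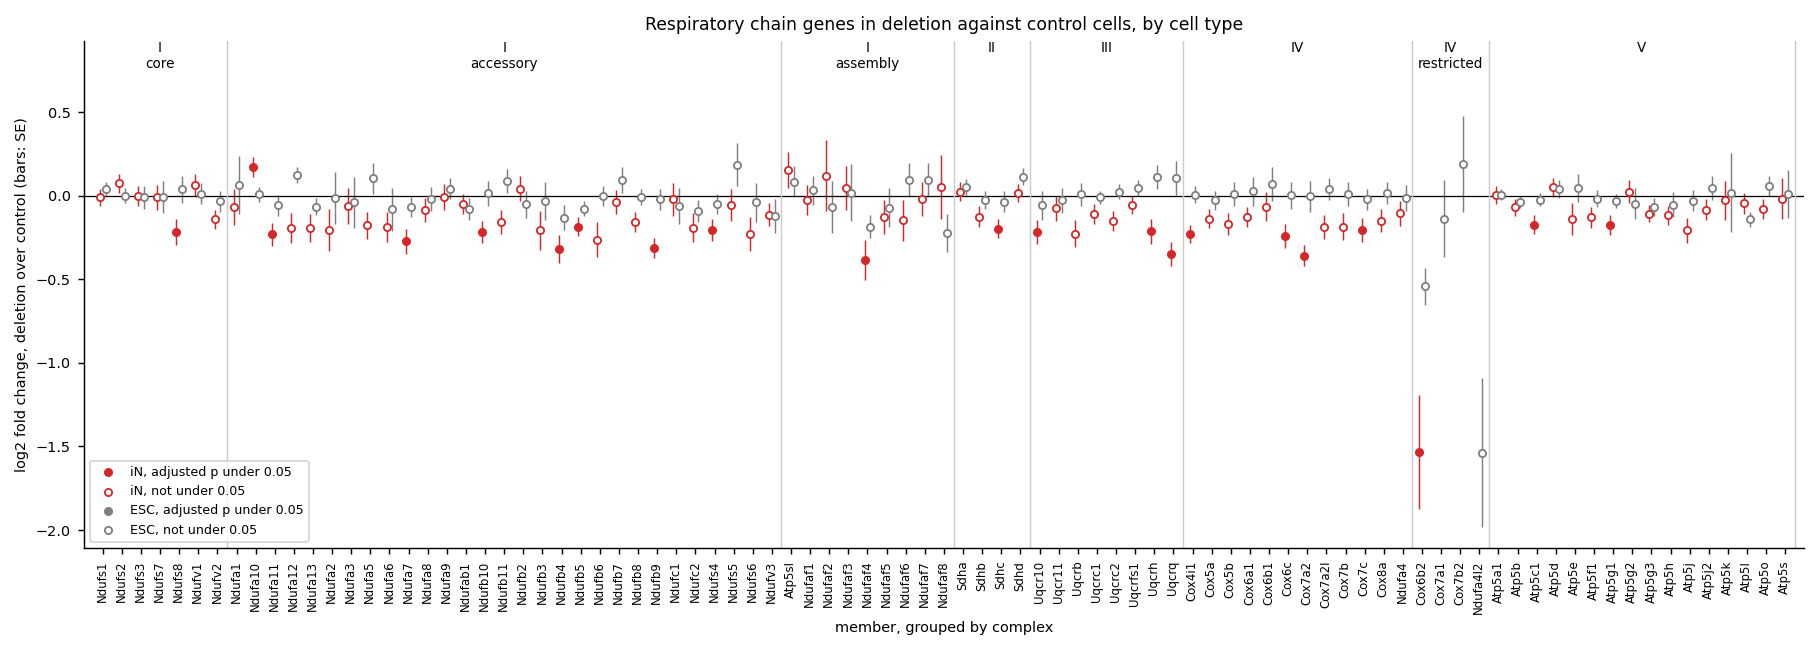
Log2 fold change of each respiratory chain gene, deletion minus control (y axis), in iNs and in ESCs, with genes grouped by complex on the x axis; filled points had an adjusted p under 0.05. In iNs 72 of 86 points lie below 0 and Cox6b2 is lowest at -1.53, while no point is filled for ESCs in the unpaired fit.

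The lowest value belonged to Cox6b2, the testis isoform. It had 25, 48 and 24 counts in control iNs and 8, 18 and 10 in deletion iNs, or 1.67, 2.27 and 1.39 CPM against 0.404, 0.949 and 0.507 CPM. The groups did not overlap (log2 fold change -1.53, SE 0.34, adjusted p = 0.0038), and without the length trend the value was -1.34. The authors' deposited table gave -1.54 with an adjusted p of 3.6e-05. Its share of the TPM of the 6b pair was 0.453% ± 0.172 in deletion iNs, and the common gene Cox6b1, at 127 to 163 CPM in control and 130 to 158 CPM in deletion iNs, did not pass. In ESCs Cox6b2 had 161, 107 and 132 counts in control and 107, 86 and 95 in deletion libraries, or 6.46 to 7.66 CPM against 4.46 to 5.29 CPM. These did not overlap either (log2 fold change -0.54, SE 0.11), but the adjusted p was 0.051 in the unpaired edgeR fit. Cox6b2 thus had lower CPM in every deletion library than in every control library of its cell type, at levels that are low in iNs.

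In ESCs none of the 89 genes passed for the deletion in either direction with edgeR without pairing (background 1.37% higher and 0.544% lower). DESeq2, also without pairing, called 0 (background 1.85% and 1.13%). At an unadjusted p under 0.05 there were 5, against 16.9% of all genes, and the median was -0.01. With the replicate letter as a block, 0 were higher (background 3.20%) and 3 lower (background 3.10%): Cox6b2 (-0.54, SE 0.11, adjusted p = 0.020), Ndufaf4 (-0.19, SE 0.04, adjusted p = 0.033) and Ndufa4l2 (-1.55, SE 0.36, adjusted p = 0.036). Ndufa4l2 had 32, 19 and 16 counts in control and 15, 4 and 5 in deletion ESCs. With the length trend removed, 0 were higher (background 1.66%) and 1 lower (background 0.816%), which was Cox6b2 (-0.55, adjusted p = 0.030). The authors' deposited table listed 0 of 89 in ESCs (background 2.42% higher and 0.962% lower), and gave Cox6b2 -0.52 with an adjusted p of 0.151.

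The difference of the deletion effect between iNs and ESCs was tested as an interaction over all 12 libraries. Of the 89 genes, 3 had a lower effect in iNs (3.37%, background 8.50%) and 0 a higher one (background 5.01%), with a median of -0.15. These were Uqcrq (-0.47, SE 0.14, adjusted p = 0.034), Ndufb9 (-0.31, SE 0.09, adjusted p = 0.037) and Cox4i1 (-0.25, SE 0.08, adjusted p = 0.037). In ESCs Uqcrq had 39.6 to 50.4 CPM in control and 44.0 to 55.2 in deletion libraries, Ndufb9 40.7 to 45.4 and 40.5 to 46.7, and Cox4i1 185 to 196 and 184 to 207, so that all 3 overlapped there. Cox7a2 (-0.37, adjusted p = 0.053) and Cox6b2 (-1.01, adjusted p = 0.062) did not pass. None of the 3 calls remained when the length trend was removed (0 lower, background 7.26%), which instead gave 4 higher genes (background 5.19%): Ndufab1, Ndufc1, Uqcr11 (0.28) and Atp5l (0.35). Scaling by library totals also left 0, with 1181 genes higher and 1082 lower over all genes, against 917 and 1556. Leaving out control ESC B or C, control iN B, deletion ESC A or deletion iN A left 0, deletion iN B or C left 1, and control ESC A gave 5.

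Ago2 is the protein that carries microRNAs to their targets, and the deposited CLIP lists gave 22400 regions with the authors' log2 fold of HA-Ago2 over its input and over untagged Ago2. Of these, 82 lay in 35 of the 89 genes. Over input, 6 regions in 6 genes passed a log2 fold of 3 and a −log10 p of 3 (7.32%, against 19.4% of all regions). Over untagged Ago2, 0 of 82 passed, against 3.67% of all regions, and the values ran from -1.47 to 1.73. The authors matched 1 of these regions to a microRNA of the cluster: chr5:145183779-145183856 in Atp5j2, matched to miR-666-5p, with log2 folds of 3.15 over input and 0.62 over untagged Ago2. Cox6b2 held 7 regions with log2 folds of 1.33 to 2.69 over input and -0.72 to 1.16 over untagged Ago2, and none was matched to a cluster microRNA. The lists pool the CLIP libraries, so these folds have no replicate check.

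Other genes of mitochondrial energy supply gave context in control iNs against ESCs, where 43.9% of all genes were called higher and 45.1% lower. Of 13 subunits encoded by mitochondrial DNA, 10 were higher and 0 lower (median 0.72), among them mt-Nd5 (1.83) and mt-Nd2 (1.34). Assembly genes of complex IV and cytochrome c were mixed, with 9 of 21 higher and 7 lower, including the copper-linked Cox19 (2.67) and Sco1 (-1.34) and the translation activator Taco1 (1.15). Other assembly genes had 12 of 22 higher and 6 lower, with Sdhaf3 (1.52), Sdhaf4 (1.35) and Ttc19 (1.28) highest. Tricarboxylic acid cycle and pyruvate genes had 10 of 20 higher and 7 lower: the pyruvate carrier genes Mpc1 (2.34) and Mpc2 (1.81) rose, while Idh2 (-2.01) and Suclg2 (-2.52) fell.

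Regulators of mitochondrial biogenesis fell for the most part, with 18 of 22 lower and 3 higher. Ppargc1a, the coactivator known for inducing respiratory genes, was the exception by level, with 0 counts in every ESC library and 35.1 to 36.0 CPM in control iNs, at least 194-fold higher (floor of 3 counts per library). In deletion iNs it had 37.9 to 42.4 CPM. Its partner Esrrg rose by 5.67, while Esrrb (-5.55), a pluripotency factor, and Pprc1 (-2.45) fell. Glycolysis genes had 12 of 20 lower and 7 higher: Hk2 (-5.47) and the glucose transporter Slc2a1 (-5.44) fell, and the neuronal enolase Eno2 rose by 6.52. Of mitochondrial carrier and import genes 16 of 21 were lower, such as Hspe1 (-2.59), Hspd1 (-2.27) and Slc25a5 (-1.83), and Slc25a4, the ADP/ATP carrier of heart and brain, rose by 2.46. The respiratory chain genes, with a median of 0.21, lay between these lists in the plot of all lists.

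**Figure D5:**
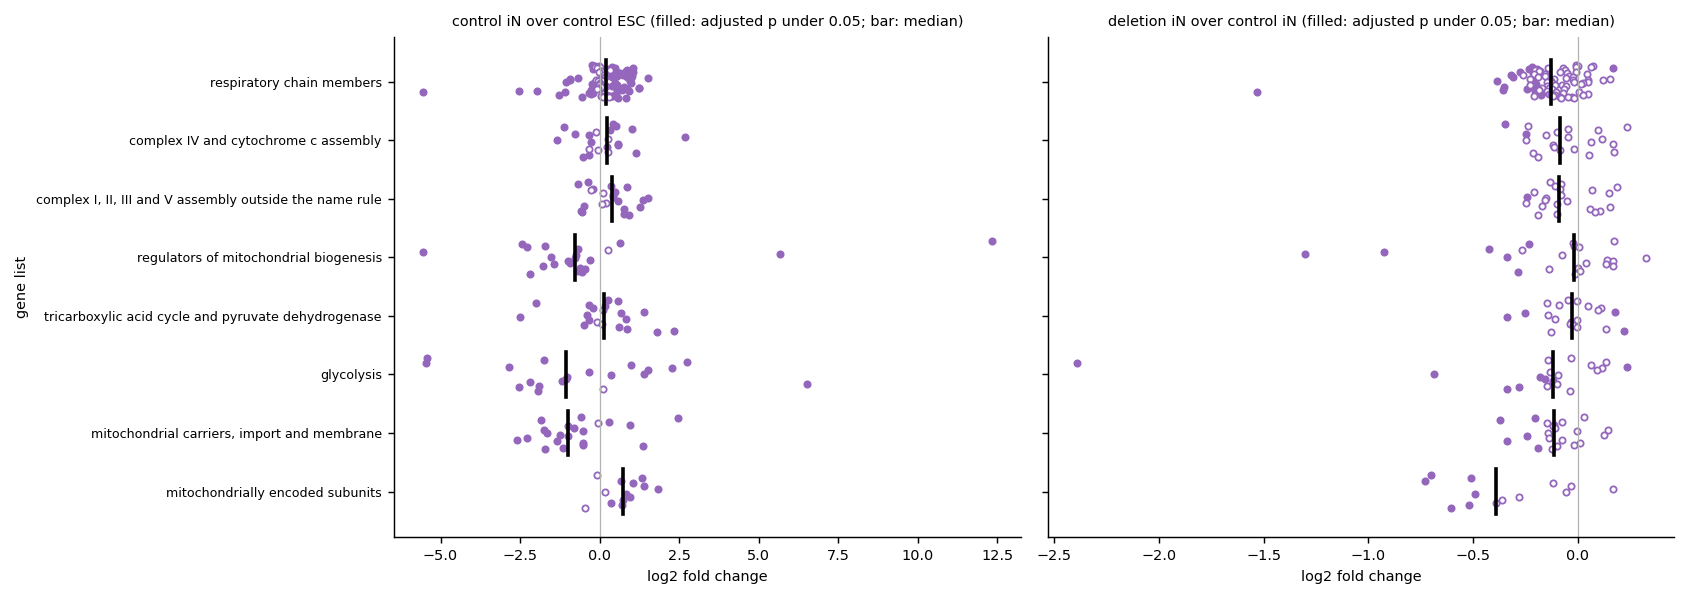
Log2 fold change (x axis) of each gene in the respiratory chain set and in the lists of related genes (y axis), for control iN minus control ESC and for deletion minus control iN; filled points had an adjusted p under 0.05 and bars are medians. In the cell type comparison the medians run from -1.05 for glycolysis to 0.72 for mitochondrially encoded subunits; the fitted value of Ppargc1a depends on the prior count because ESC libraries hold 0 counts.

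In deletion against control iNs, where 13.3% of all genes were called lower and 12.4% higher, 6 of the 13 mitochondrially encoded subunits were lower and 0 higher, with a median of -0.39: mt-Nd3 (-0.73), mt-Nd1 (-0.70), mt-Atp8 (-0.61) and mt-Atp6 (-0.52) led. On library totals their summed level overlapped, at 33493 to 43015 CPM in control and 24417 to 35912 CPM in deletion iNs. All list values of this paragraph are from the main fits, in which the length trend was not removed. In ESCs the median of the 13 was similar, at -0.40, all 13 values were negative, 9 had an unadjusted p under 0.05 and 1 passed after adjustment, and mitochondrial genes took 1.47 to 1.84% of counts in deletion against 1.99 to 2.27% in control libraries. None of the 13 passed the interaction test with edgeR in either direction (1 at an unadjusted p under 0.05). Cytochrome c itself, Cycs, was lower (-0.35), as were the copper chaperone Cox17 (-0.25) and Sdhaf2 (-0.24). Of the regulators 6 of 22 were lower and 0 higher, with Esrrg (-1.30), Esrrb (-0.93), Gabpb1 (-0.43) and Tfam (-0.34), the packaging factor of mitochondrial DNA. Carrier and import genes had 5 of 21 lower, including Slc25a5 (-0.37) and Hspa9 (-0.34). Glycolysis had 6 of 20 lower and 1 higher, with Hk2 at -2.39 and Aldoc at -0.69, and the tricarboxylic acid cycle list had 2 lower and 2 higher of 20. In ESCs (background 1.37% higher and 0.544% lower) 3 genes of these lists passed for the deletion: Slc2a1 (0.26), mt-Cytb (-0.39) and Esrrb (-0.23).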

How the data were processed

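RNA was measured in 12 rRNA-depleted libraries, 3 per genotype and cell type. Per the submitters' processing notes the tools were RSEM 1.2.30, STAR 2.4.1d, cutadapt 1.4.2, SAMtools and DESeq2 and the build was mm10, with no roles given. The strand setting and the annotation release are not given in the sources used here, so counts of overlapping genes on opposite strands are uncertain. Per the file headers, the authors deposited for each gene an expected count, a TPM, an effective length and posterior means and spreads of the count, all from RSEM. In the comparison tables that the authors deposited, each gene has its log2 fold change with an adjusted p-value, beside a signal that averages normalised counts over libraries. For every CLIP region the authors deposited a −log10 p and a log2 fold, made from pooled libraries, and their caller is not given in the sources used here. Symbols came from the authors' tables for 15918 of 52636 entries and from either table for 52435.

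Expected counts were rounded, filtered (filterByExpr, minimum count 10), scaled by TMM and fitted by the quasi-likelihood F test of edgeR 4.0.16 (R 4.3.3). P-values were adjusted over all genes by Benjamini-Hochberg, with a threshold of 0.05. Pairwise comparisons used 6 libraries and the interaction 12. CPM uses the TMM-scaled library size, except for the sums over marker lists, which use library totals. SE is the log2 fold change divided by the square root of F. The length trend was a lowess curve (span 0.3) of each library's log ratios on effective length, used as an offset. Scripts were tested on simulated data. Python 3.11.15 and matplotlib 3.10.9 drew figures.

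Text names, per comparison and complex, at most 3 rises and 3 falls past the threshold, plus all complex II, subunit c and restricted complex IV genes and at most 4 genes per related list. Ndufv2, Ndufs8, Uqcrfs1, Cox7c, Cox4i1, Cox6c, Ndufaf4, Atp5a1, Atp5c1 and Atp5e, in some comparisons, complete small counts and were partly chosen after their values were seen. The values of 1 gene are not reported here. The members and lists were chosen with earlier results of these data known. Alternatives were the Wald test of DESeq2 1.42.0 and its size factors, library totals, no filter, posterior mean counts, 1 fit of all 12 libraries, removal of mitochondrial, 7S and rRNA-like genes, a replicate block and each library left out. The main fits did not use the letters, and the block was an alternative. In the ESC deletion comparison the deviations of same-letter libraries from their groups correlated at 0.396, 0.106 and 0.218 over genes (not independent replicates). Each was over 0.1, so the block fit is the paired reading of that comparison. In the other pairwise comparisons the correlations were not all over 0.1, and the letters were not read as pairs.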

Additional observations from a re-analysis of the deposited data

Results flagged for a closer look

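In 3 genes the effect of the deletion differed between iNs and ESCs past the threshold of the interaction test of edgeR over all 12 libraries: Uqcrq (log2 difference -0.47), Ndufb9 (-0.31) and Cox4i1 (-0.25). This is 3.37% of the 89 genes, below the 8.50% of all genes called lower in that test. In CPM every deletion iN library of each was below every control iN library, while the ESC libraries of the genotypes overlapped. In TPM the iN libraries of Cox4i1 also overlapped. None of the 3 passed with the length trend removed, where the values were -0.16, -0.08 and -0.06, or with scaling by library totals.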

How the results depend on the processing

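Removing the length trend changed most. For control iNs against ESCs it gave 69 higher, 8 lower and a median of 0.80, for deletion cells 70, 10 and 0.83, for the deletion in iNs 2 higher, 7 lower and -0.013, and for the interaction 4 higher, 0 lower and 0.048. It turned the sign of Atp5l (0.25), Ndufa12 (0.59), Ndufs6 (0.12), Uqcrb (0.62), Cox7c (0.60) and Atp5e (0.68) in controls, of Atp5e (0.79), Atp5l (0.58), Cox4i1 (0.53), Cox6c (0.83), Cox7b2 (0.20), Ndufa12 (0.50), Ndufaf2 (0.073), Ndufaf8 (0.19), Ndufs6 (0.17), Uqcr10 (1.10), Uqcrb (0.63) and Uqcrc1 (0.077) in deletion cells, and of Uqcr10 (0.0074) in deletion against control iNs. Leaving out the complex I assembly genes and the restricted isoforms gave 13 lower and a median of 0.34 in controls, with fewer genes counted. Cox7a2l and Atp5s stayed in that count. Library totals gave a median of 0.16 in deletion cells, 9 lower for the deletion in iNs, 1 lower in ESCs and 0 lower for the interaction; the cause was not tested. The 1 higher gene of the deletion in iNs was lost (0 higher) with the DESeq2 Wald test, DESeq2 size factors, no filter, posterior mean counts, the replicate block, without mitochondrial, 7S and rRNA-like genes, and in every fit without 1 library (0 to 0). Without 1 library, that comparison gave 5 to 21 lower, the ESC comparison 0 to 1 lower and 90 to 315 genes called in all against 309, and the interaction 0 to 5 lower. In ESCs, the length trend, no filter, posterior mean counts and the removal of mitochondrial, 7S and rRNA-like genes each gave 1 lower gene, and all genes called rose to 504 with no filter. With the replicate block, which pairs libraries by letter, ESCs gave 3 lower genes and 1019 genes called in all. In the interaction DESeq2 and no filter each gave 6 lower genes, and the block 2. The block changed no other count by over 1.5 times, apart from the 1 higher gene above. The stricter Ago2 limit left 6 of 35 genes. Of 1470 alternative values for 97 results of single genes, 1312 kept direction and side of the threshold, 139 no longer passed and 19 changed sign. Depth limits Cox6b2, Cox7a1, Cox7b2 and Ndufa4l2, which held few counts in iNs.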
